A study of Mus musculus with 20 samples.

Results

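The WNT genes described here are the ligands, receptors and antagonists of the WNT pathway, 52 of the 53380 genes counted in sorted mouse epidermal cells. They were defined by symbol, in a list drawn up with earlier results of these data known. The list holds every numbered Wnt ligand, Fzd (frizzled) receptor, Dkk and Sfrp antagonist and Rspo (R-spondin), with Dkkl1 and Wif1. It also holds the co-receptors Lrp5 and Lrp6, the R-spondin receptors Lgr4, Lgr5 and Lgr6, and the feedback genes Axin1, Axin2, Rnf43 and Znrf3. Of the 52, 38 had 3 or more libraries with a normalized count of 10 or more and were tested among 17204 genes. Epidermal cells of dorsal skin had been separated by fluorescence-activated cell sorting into 5 populations, and their RNA was sequenced in 20 libraries to compare them. HFSCs (4 libraries) are hair follicle stem cells sorted as CD34-positive and Sca1-negative. DETCs (5 libraries) are dendritic epidermal T cells, sorted as Thy1-positive with low or no Sca1 and, in the paper, without integrin α6. Thy1hi cells (4 libraries) and Thy1- cells (4 libraries) are Sca1-positive keratinocytes with high or no surface Thy1. The fifth population (3 libraries) is Thy1hi cells that also carried yellow fluorescent protein (YFP+), the label left by Cre recombination. All labels give the genotype Thy1.2CreERT2-Rosa26-EYFP, in which a Thy1.2-driven, tamoxifen-dependent Cre switches on the YFP reporter at Rosa26, and no treatment, while the study's methods give wild-type mice for the unlabelled populations and an induced Cre for the YFP+ cells. The labels call the YFP+ cells Sca1-negative where the study sorted Sca1-positive cells. Ages in the labels rise by a week from each sample to the next, from 8 to 27 weeks, whereas the design text gives 8-week-old mice throughout.

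WNT ligands are secreted, lipid-modified proteins that bind a frizzled receptor together with LRP5 or LRP6, which stabilizes β-catenin and switches on target genes such as Axin2. R-spondins bind LGR4, LGR5 or LGR6 and remove the ubiquitin ligases RNF43 and ZNRF3, which otherwise clear frizzled receptors from the cell surface, while DKK, SFRP and WIF proteins act outside the cell, mostly as antagonists. In skin the pathway is known for its part in hair growth and in the upkeep of the basal layer, and LGR5 and LGR6 mark stem cells of the follicle and of neighbouring epithelium.

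The libraries held 7781256 to 12982393 reads on genes, of which 13.1% to 41.5% fell on Rn45s, a ribosomal RNA gene. In Thy1- replicate 4 the values of 3212 genes stood in the wrong rows and were put back; no WNT gene was among them. Cd34 averaged 2046 normalized counts in HFSCs and at most 99.98 in the other populations, and Thy1 averaged 1937 in DETCs, 633 in Thy1hi, 902 in YFP+ and 69.1 in Thy1- cells. The summed level of 6 T cell markers was 14772 to 32331 in DETC libraries and at most 381 elsewhere, none of the 6 being at 0 in any population. The summed level of 5 basal keratinocyte markers (Krt5, Krt14, Itga6, Itgb4 and Col17a1) was 171225 to 228574 in Thy1hi, 148331 to 257322 in YFP+, 75406 to 121650.0 in Thy1-, 48623 to 114606 in HFSC and 9972 to 46131 in DETC libraries, so keratinocyte transcripts were present in the T cell libraries. HFSC replicate 4 (48623) and DETC replicate a (9972) stood below the others of their groups. The sum of 5 suprabasal markers (Krt1, Krt10, Lor, Flg2 and Sbsn) came to 9090.2 to 30716 in Thy1hi and 28838 to 44603 in Thy1-, 24654 to 51863 in HFSC, 17306 to 60922 in YFP+ and 4666 to 30849 in DETC libraries, and that of 6 fibroblast markers reached 1946 in Thy1hi and 215 in Thy1- libraries. In sorted bulk samples, fewer cells of a type and less RNA per cell cannot be told apart.

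Differences are those of mean log2(normalized count + 1) with their standard error (SE), fitted with limma over all 20 libraries, and a gene is called where its p, adjusted over the 17204 genes by the Benjamini-Hochberg method, is under 0.05. An exact two-sided permutation test of single genes can reach 0.0286 for 4 against 4 libraries, 0.0159 for 5 against 4 and 0.0571 for 3 against 4. Same-numbered Thy1hi and Thy1- libraries departed jointly from the means of their populations, so a paired fit of these 8 libraries is given beside the unpaired fit. The all-population block adds replicate number as a term over all populations. It leaves out DETC replicates a and b, whose numbers match no sample label.

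Between HFSCs and Thy1hi cells, 21 of the 38 tested WNT genes were called, 11 higher and 10 lower in HFSCs, against 13.4% of all genes (6.86% higher and 6.51% lower). Of 13 ligands 7 were called, all lower in HFSCs, and 6 were not called. Of the frizzled genes Fzd1, Fzd2, Fzd3 and Fzd7 were called higher and Fzd10 lower, and of the secreted antagonists Dkk3 and Sfrp1 were called higher. Of the 10 frizzled genes 4 were not called, and of the 5 antagonists 2. Fzd9 and Wif1 also had higher values in HFSCs but have no test here, and they do not count as called by role. The difference between these groups of genes was not tested. Fzd9, Wif1 (HFSCs) and Wnt7a (Thy1hi cells) passed the minimum only through the group where they are high, so their differences are given as values with no test, and without them 35 genes remain, of which 19 were called here, 10 in HFSCs against Thy1- cells, 22 in DETCs against Thy1hi cells and 23 in DETCs against HFSCs. The basal marker sum was also lower in every HFSC than in any Thy1hi library, and the suprabasal sum was higher in all HFSC libraries than in 3 of the 4 Thy1hi libraries. The sum of 5 melanocyte markers was higher in HFSC (109.7 to 286) than in Thy1hi libraries (35.3 to 83.4, Mlana at 0) without overlap, and that of 6 Langerhans cell markers was 422 to 6148 and 1506 to 2252; the part of these sums was not tested. HFSCs against Thy1- cells gave 12 called genes (11 higher and 1 lower in HFSCs, against 6.08% of all genes, 3.52% higher and 2.56% lower). DETCs against Thy1hi cells gave 23 (8 higher and 15 lower in DETCs, against 36.6% of all genes, 19.9% higher and 16.6% lower), and DETCs against HFSCs gave 25 (8 higher and 17 lower, against 39.7%, 21.2% higher and 18.5% lower). Between Thy1hi and Thy1- cells limma without the pairing called 0 of 38 (12 had an unadjusted p under 0.05; all genes 0.337%), edgeR called 0 and DESeq2 called 2 (1.22% of all genes), and the paired fit called 13 (10 higher and 3 lower in Thy1hi cells), against 6.61% of all genes (3.42% higher and 3.19% lower). With the all-population block 3 of these 13 were called (Wnt3, Wnt3a and Fzd7), against 1.26% of all genes. The libraries of these 2 populations did not overlap at 9 of the 38 genes (6 higher and 3 lower in Thy1hi cells), against 6.77% of all genes (3.59% and 3.17%). Median differences over the 38 were 0.05, 0.03, -0.14, -0.83 and 0.12 on the log2 scale in these 5 comparisons, beside medians of -0.02, -0.04, -0.0044, 0.02 and -0.02 over all genes. Without replicate 4 of both Thy1hi and Thy1- cells, which stood apart from the other 3 at several genes below, the unpaired counts were 21, 12, 20, 25 and 0, against 17.7%, 15.0%, 34.0%, 41.1% and 0.0523% of all genes. The 5 comparisons share populations and are not independent of each other.

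**Figure D1:**
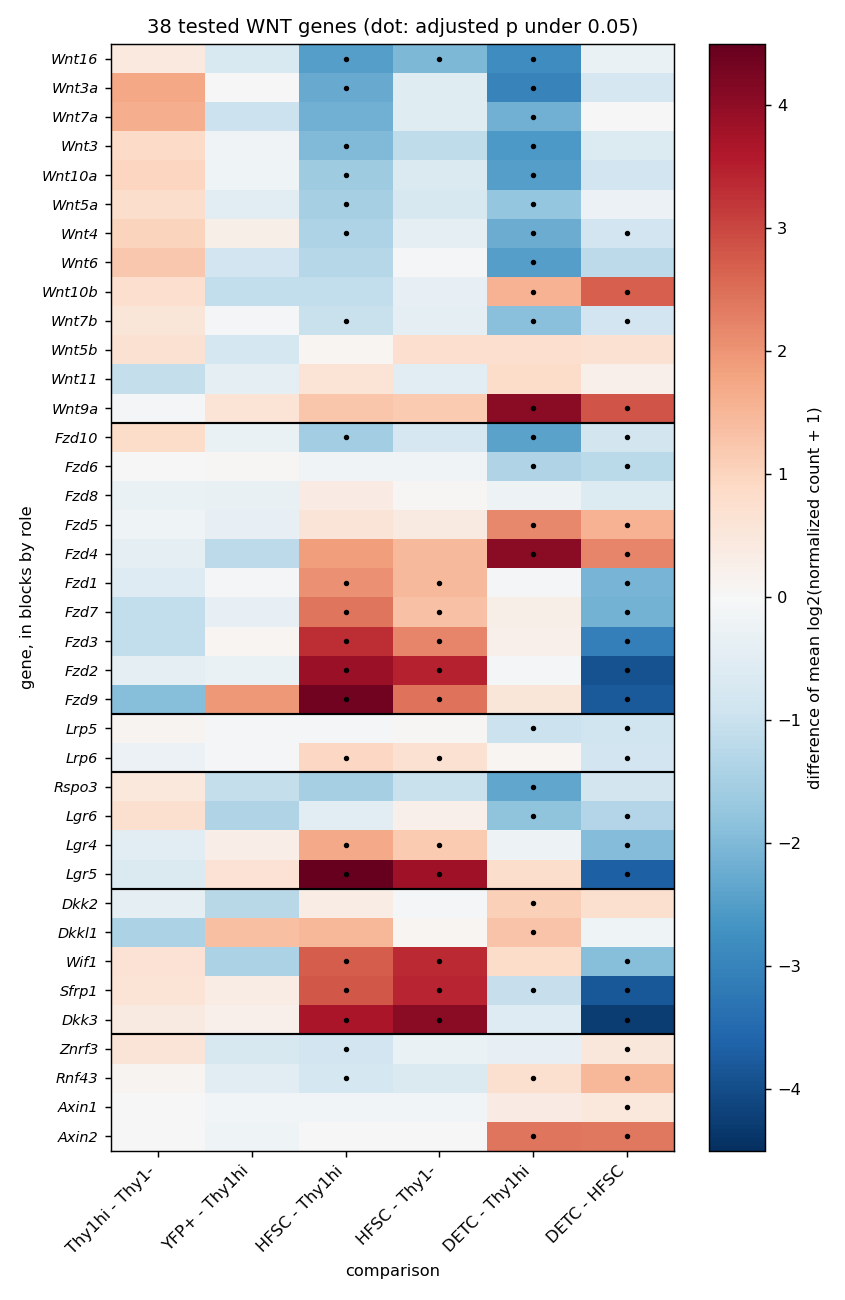
Differences of mean log2(normalized count + 1) for the 38 tested WNT genes (rows, in blocks by role) in 6 comparisons (columns; the first population minus the second), with a dot where the adjusted p was under 0.05 in the unpaired limma fit. In HFSCs against Thy1hi cells the called ligands are all lower and the called antagonists (Dkk3 and Sfrp1) higher. No dot stands in the first 2 columns. Dots of Fzd9, Wif1 and Wnt7a are no test, since these genes passed the minimum only through the group where they are high.

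The 14 WNT genes under the minimum were the ligands Wnt1, Wnt2, Wnt2b, Wnt8a, Wnt8b and Wnt9b, the R-spondins Rspo1, Rspo2 and Rspo4, and the antagonists Dkk1, Dkk4, Sfrp2, Sfrp4 and Sfrp5. Their highest value in any library was 19.7 normalized counts and their highest read number 17. Dkk1 and Sfrp2 are known from the dermis of the hair follicle, a compartment that was not sorted. They were not tested between populations. Dkk1 had at least 1 read in every library, with 4.89 to 19.2 normalized counts in DETC libraries and at most 7.32 elsewhere.

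Wnt3, Wnt4 and Wnt10a were the most abundant ligands of the Sca1-positive keratinocytes. Per kilobase of annotated exon, Thy1hi cells had 186 normalized counts of Wnt10a, 178 of Wnt3 and 162 of Wnt4, with overlapping ranges over the 4 libraries, then 85.0 of Wnt7b, 44.4 of Wnt16 and 41.6 of Wnt3a. In Thy1- cells the order of the leading genes was Wnt3 (97.7), Wnt10a (95.5), Wnt4 (82.4) and Wnt7b (59.2), and the first 3 again overlapped. HFSCs had 64.3 of Wnt4, 63.9 of Wnt10a, 46.8 of Wnt3 and 43.7 of Wnt7b per kilobase, and these 4 overlapped. DETCs had 43.9 of Wnt10b, 38.3 of Wnt10a and 38.1 of Wnt9a, whose ranges overlapped.

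Wnt3, a ligand of the β-catenin branch (chromosome 11, 103774150 to 103817957, plus strand), had 578, 398, 589 and 624 normalized counts in the 4 Thy1hi libraries and 313, 255, 326 and 309 in the Thy1- libraries. HFSC libraries held 190.5, 84.7, 186 and 114 and DETC libraries 129, 91.5, 131, 30.2 and 119. Every Thy1hi library lay above every library of these 3 populations. The difference from Thy1- cells was 0.85 on the log2 scale (paired SE 0.11, adjusted p 0.0019; unpaired adjusted p 0.593; all-population block 0.0216), that of HFSCs from Thy1hi cells -1.98 (SE 0.37, adjusted p 0.00115) and that of DETCs from Thy1hi cells -2.58 (SE 0.35, adjusted p 7e-06). HFSCs against Thy1- cells, at -1.13, was not called (adjusted p 0.0745), though the libraries did not overlap (exact p 0.0286).

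Wnt3a, which signals through β-catenin like Wnt3, had 124, 84.3, 75.6 and 176 normalized counts in Thy1hi and 29.2, 20.8, 24.4 and 69.7 in Thy1- libraries. Its difference of 1.73 (paired SE 0.21, adjusted p 0.00138; unpaired 0.417; all-population block 0.0234) was the largest of any WNT gene called in the paired fit. The libraries did not overlap, and Thy1hi was higher in 4 of 4 pairs. HFSC libraries held 31.2, 10.9, 32.1 and 20.3, -2.27 against Thy1hi cells (SE 0.63, adjusted p 0.0202), a call that was lost without HFSC replicate 2 or without Thy1hi replicate 1 or 4 (adjusted p 0.0511 to 0.0606).

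Wnt4 and Wnt10a were likewise higher in Thy1hi than in Thy1- cells by the paired fit. Wnt4, a ligand known from kidney and gonad as well as skin, had 757, 524, 597 and 838 in Thy1hi and 293, 304, 290.3 and 495 in Thy1- libraries, with no overlap (difference 0.99, paired SE 0.12, adjusted p 0.0017; unpaired 0.236; all-population block 0.07). Wnt10a, a ligand of skin appendages and teeth, had 614, 344, 335 and 541 and 218, 219.8, 169.6 and 335, where the highest Thy1- library (replicate 4) equalled the lowest Thy1hi library within 1 count, and each Thy1hi library was above its own partner (difference 0.95, paired adjusted p 0.00457; unpaired 0.707; all-population block 0.21). In HFSC libraries Wnt4 was at 352, 251, 327 and 148 and Wnt10a at 171, 205, 187 and 67.3, replicate 4 being lowest for both. Against Thy1hi cells both were called lower (-1.38, adjusted p 0.00343, and -1.60, adjusted p 0.0248), and the call of Wnt10a was lost without HFSC replicate 4 or without Thy1hi replicate 1 or 4 (adjusted p 0.0522 to 0.0894).

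The paired fit alone also called Wnt6, Wnt5a and Wnt7b higher in Thy1hi than in Thy1- cells. Wnt6, with 62.9, 40.8, 30.1 and 65.0 in Thy1hi and 19.5, 17.4, 10.2 and 42.6 in Thy1- libraries, differed by 1.22 (paired adjusted p 0.0247; unpaired 0.806; all-population block 0.227). Wnt5a, the prototype ligand of β-catenin-independent signalling, had 112, 81.7, 78.8 and 119 and 69.3, 52.1, 41.0 and 64.8 (difference 0.78, paired 0.0249; unpaired 0.649; all-population block 0.393). Thy1hi and Thy1- libraries of Wnt5a were apart, and those of Wnt6 overlapped at Thy1- replicate 4. Wnt7b had 440.5, 365, 381 and 479 and 259, 307, 234 and 359 and differed by 0.53 (paired 0.0285; unpaired 0.843; all-population block 0.408). Exons of Wnt5a and Wnt7b overlap antisense genes (Gm2670, at most 29.8 normalized counts, and AU022754, at most 13.3), and without a stated strand setting reads of the overlap cannot be assigned. In HFSC libraries Wnt5a was at 46.2, 26.1, 27.8 and 38.5 and Wnt7b at 238, 216, 263 and 139, both called lower than in Thy1hi cells (-1.49, adjusted p 0.00849, and -0.99, adjusted p 0.0415), and the call of Wnt7b was lost without any of HFSC replicate 1, 2 or 4, DETC replicate 2, Thy1hi replicate 1, 2, 3 or 4, Thy1- replicate 2 (adjusted p 0.0506 to 0.124) and without a filter (0.0795), in the deposited row order (0.0508) and without replicate 4 of both Thy1hi and Thy1- cells (0.074).

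Wnt11, another ligand of the β-catenin-independent branch, ran the other way, with 45.3, 40.8, 11.4 and 52.4 normalized counts in Thy1hi and 66.9, 62.5, 80.5 and 73.0 in Thy1- libraries. Every Thy1- library was above every Thy1hi library, yet the difference of -1.09 was not called (adjusted p 0.746, paired 0.113, exact p 0.0286). Wnt7a had 11.0, 10.54, 2.44 and 19.4 against 1.22, 6.94, 2.37 and 0.820 and Wnt5b ranged from 11.4 to 32.0 against 8.20 to 15.8 (paired adjusted p 0.289), the latter not called. Wnt5b and Wnt11 were called in no unpaired comparison. In all, 7 of 13 ligands were called in the paired fit and all 7 were higher in Thy1hi cells (3.42% of all genes were called higher), of which Wnt3 and Wnt3a were called with the all-population block. The basal marker sum was also higher in Thy1hi libraries, and the Langerhans cell sum was lower (1506 to 2252 against 2317 to 3175), both without overlap; the part of these sums in the differences was not tested.

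**Figure D2:**
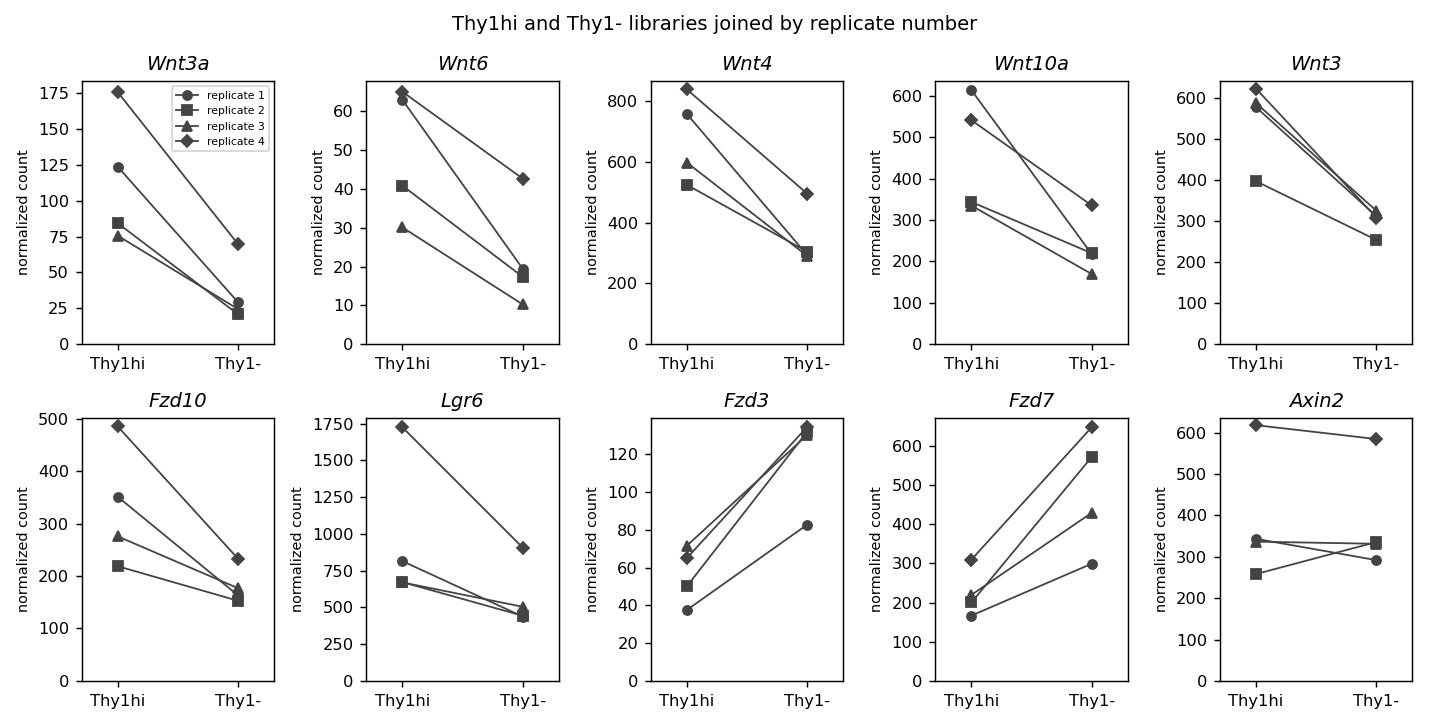
Normalized counts (vertical axis, from 0) of 10 WNT genes in Thy1hi and Thy1- libraries, joined by replicate number. The lines of Wnt3a, Wnt6, Wnt4, Wnt10a, Wnt3, Fzd10 and Lgr6 fall from Thy1hi to Thy1- in 4 of 4 pairs, those of Fzd3 and Fzd7 rise in 4 of 4, and those of Axin2 cross.

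Wnt16, a ligand known from bone and skin, was the ligand called lower in HFSCs than in both keratinocyte populations. It had 167, 179, 262 and 166 normalized counts in Thy1hi, 184, 83.3, 178 and 134 in Thy1- and 45.02, 33.7, 67.3 and 11.2 in HFSC libraries. No HFSC library reached a Sca1-positive library. The difference was -2.49 from Thy1hi cells (SE 0.46, adjusted p 0.00104) and -2.04 from Thy1- cells (SE 0.46, adjusted p 0.0111). The latter was not called with only these 2 populations in the fit (adjusted p 0.0559).

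DETCs had less of 8 ligands than Thy1hi cells and more of Wnt9a and Wnt10b. The 8 (Wnt3, Wnt3a, Wnt4, Wnt5a, Wnt6, Wnt7b, Wnt10a and Wnt16) were at 15.2% (Wnt16) to 30.2% (Wnt5a) of their Thy1hi mean. Krt14 stood at 15.6% and Col17a1 at 21.2% of its Thy1hi mean in the same libraries. Wnt7a stood at 0.980 to 1.58 in DETC libraries, and its difference has no test since it passed the minimum through Thy1hi cells alone. Differences ran from -3.02 for Wnt3a (adjusted p 0.000432), -2.78 for Wnt16 (3.98e-05), -2.48 for Wnt6 (0.00486), -2.46 for Wnt10a (0.000149) and -2.25 for Wnt4 (2.28e-06) to -1.75 for Wnt5a (0.000391). Without DETC replicate a the difference of Wnt6 was -1.71 and that of Wnt3a -2.39. DETC replicate a, the library with the lowest basal marker sum, also had the lowest Wnt3 (30.2), Wnt3a (1.37), Wnt4 (72.7), Wnt5a (16.5), Wnt6 (0), Wnt7b (52.1), Wnt10a (19.2) and Wnt16 (9.60) of the 5 DETC libraries. The paper sorted DETCs as negative for integrin α6, a marker of basal keratinocytes. The part of keratinocyte RNA in the DETC level of these ligands was not tested. Against HFSCs, Wnt4 (-0.86, adjusted p 0.0187) and Wnt7b (-0.88, 0.024) were called lower in DETCs, Wnt4 losing its call without HFSC replicate 1 or 3 or without DETC replicate a (adjusted p 0.0562 to 0.0761) and Wnt7b without HFSC replicate 1 or 3 or without DETC replicate a (adjusted p 0.0652 to 0.0775). Wnt4 also lost it with only the 2 populations in the fit (0.0638) and with a block over all populations (0.0934), and Wnt7b with only the 2 populations in the fit (0.0865).

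Wnt9a, a ligand known from joints and limb skeleton, had 139.9, 82.4, 133, 178 and 101 normalized counts in the 5 DETC libraries. Elsewhere it ranged from 4.42 to 7.90 in Thy1hi, 6.08 to 8.20 in Thy1-, 8.97 to 13.2 in YFP+ and 2.80 to 33.7 in HFSC libraries. No DETC library overlapped another population. DETCs were 4.05 above Thy1hi cells on the log2 scale (SE 0.48, adjusted p 1.15e-06, exact p 0.0159), or 3.00 with a pseudocount of 10. Against HFSCs DETCs were 2.82 higher (SE 0.48, adjusted p 9.62e-05), or 2.08 without HFSC replicate 4 and 2.19 with a pseudocount of 10. Wnt10b, a ligand of the β-catenin branch known from hair follicle growth, had 126, 173, 142, 218 and 86.5 in DETC, 37.5, 46.1, 31.7 and 89.2 in Thy1hi and 26.6, 23.9, 34.2 and 9.11 in HFSC libraries. DETCs were 2.69 above HFSCs (SE 0.47, adjusted p 0.000109, no overlap) and 1.58 above Thy1hi cells (adjusted p 0.0107), where Thy1hi replicate 4 reached the lowest DETC library. Replicate a had the most Wnt9a and Wnt10b of the DETC libraries, together with the highest T cell marker sum (32331, the others 14772 to 22919).

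**Figure D3:**
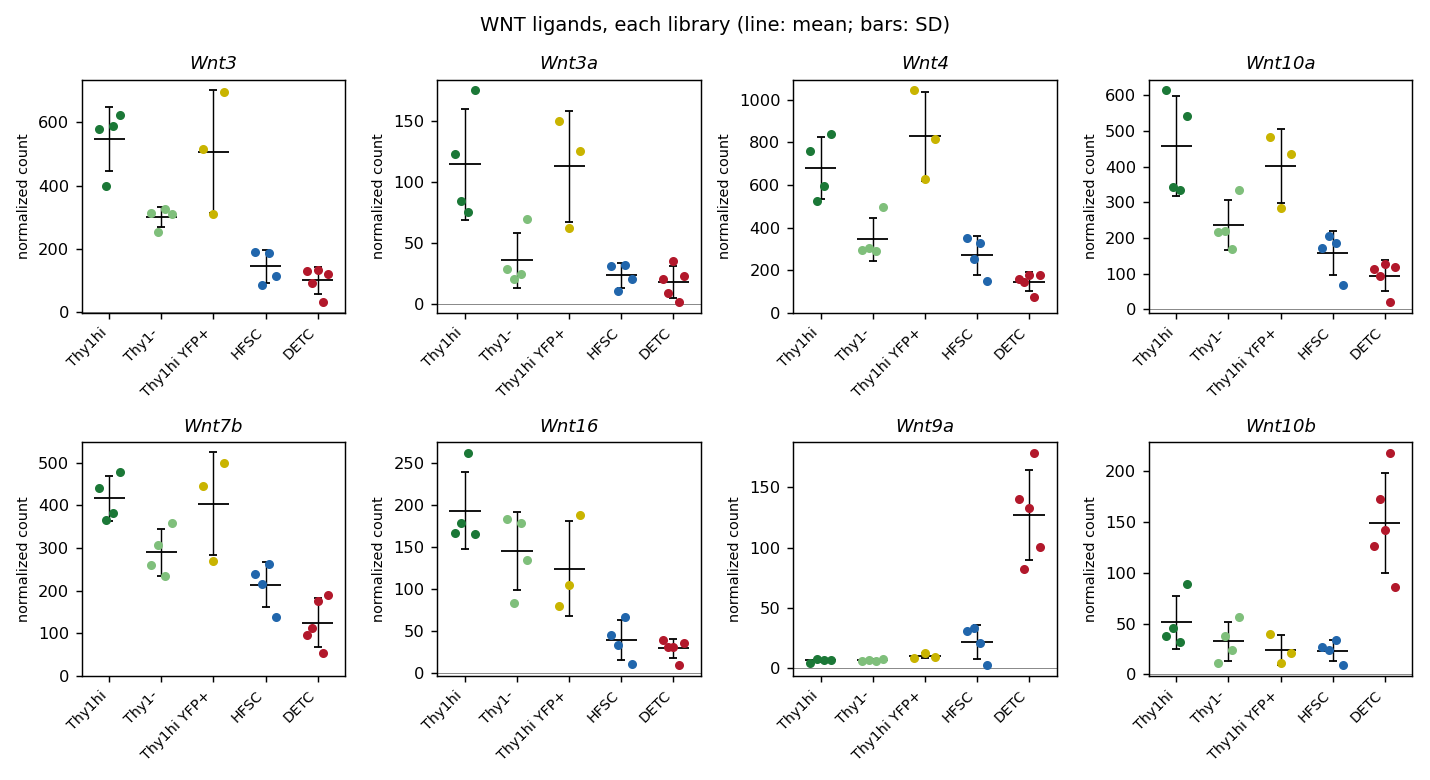
Normalized counts (vertical axis) of 8 WNT ligands in each library of the 5 populations, with the mean (line) and SD (bars). The means of Wnt3, Wnt3a, Wnt4, Wnt10a, Wnt7b and Wnt16 are highest in Thy1hi or YFP+ cells, those of Wnt9a and Wnt10b in DETCs.

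On the mm10 genome 8 of the ligands lie as 4 neighbouring pairs within 100 kb, and the genes of a pair did not always differ in the same direction. Wnt3a (chromosome 11, 59248033 to 59290752, minus strand) and Wnt9a (59306928 to 59333552, plus strand) point away from each other across 16.2 kb, and in DETCs against Thy1hi cells Wnt3a was called lower and Wnt9a higher. Wnt6 and Wnt10a (chromosome 1, 74771892 to 74785322 and 74791516 to 74804179, both plus strand, 6.19 kb apart) were both called lower in that comparison and higher in Thy1hi than in Thy1- cells by the paired fit. The partners of Wnt3 and Wnt10b, Wnt9b (24.3 kb away) and Wnt1 (11.7 kb away), were both under the minimum in every population. The sequences shown are the 250 bases before the RefSeq start of Wnt3a and Wnt9a (GRCm38.p6, the assembly of mm10), because these neighbours differed in opposite directions. Capitals mark the letters TATAA, the core of a TATA box, searched on both strands after the sequences had been read.
Wnt3a, chr11:59290752-59291001, minus strand: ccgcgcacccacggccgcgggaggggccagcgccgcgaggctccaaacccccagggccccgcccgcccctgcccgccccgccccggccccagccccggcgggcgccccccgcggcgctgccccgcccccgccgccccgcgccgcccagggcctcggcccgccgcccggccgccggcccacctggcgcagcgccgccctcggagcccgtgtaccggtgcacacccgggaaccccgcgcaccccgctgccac
Wnt9a, chr11:59306680-59306929, plus strand: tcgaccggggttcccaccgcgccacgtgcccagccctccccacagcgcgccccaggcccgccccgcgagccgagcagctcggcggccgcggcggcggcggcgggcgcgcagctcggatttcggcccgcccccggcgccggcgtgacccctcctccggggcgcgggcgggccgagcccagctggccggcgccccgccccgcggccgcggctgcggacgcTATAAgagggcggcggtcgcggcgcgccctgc
TATAA began 32 bases before the start of Wnt9a and was not found near Wnt3a; 24.9% of 32851 RefSeq windows of 300 bases (250 before to 50 after a start) held it on either strand. Both windows were rich in G and C (86.3% and 83.3%, beside a median of 52.7% over all windows).

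Frizzled genes, the receptors of WNT ligands, were ordered differently in each population. Fzd7 led in HFSCs with 257 normalized counts per kilobase, followed by Fzd2 (110.0), Fzd1 (96.7) and Fzd6 (85.6), while Thy1hi cells had most of Fzd10 (102) and Fzd6 (95.7), and DETCs most of Fzd5 (114). The ranges of Fzd10 and Fzd6 overlapped in Thy1hi cells, and Fzd2, Fzd1 and Fzd6 overlapped in HFSCs, whereas Fzd7 in HFSCs and Fzd5 in DETCs lay above all other frizzled genes.

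Fzd2 had 289.7, 589, 435 and 298 normalized counts in HFSC libraries and 20.3 to 31.0 in Thy1hi, 26.8 to 42.8 in Thy1- and 4.12 to 57.0 in DETC libraries. Fzd3, a receptor known for planar polarity and hair orientation, had 444, 349.7, 532 and 1083 in HFSC, 37.5, 50.05, 71.5 and 65.0 in Thy1hi and 82.7, 132, 130.2 and 134 in Thy1- libraries. For both genes every HFSC library lay above every other library. Against Thy1hi cells HFSCs were 3.88 higher for Fzd2 (SE 0.65, adjusted p 0.000339) and 3.31 for Fzd3 (SE 0.38, adjusted p 5.91e-06), and against Thy1- cells 3.46 (adjusted p 0.0027) and 2.21 (0.00115). DETCs were lower than HFSCs at both (-3.93, adjusted p 3.43e-05, and -3.07, adjusted p 8.34e-07).

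Fzd7 had 1198, 1338, 1228 and 894 normalized counts in HFSC, 167, 200.2, 219 and 309 in Thy1hi and 299, 572, 429 and 648 in Thy1- libraries. HFSC libraries were above all others, and Thy1hi lay below Thy1- libraries except that Thy1- replicate 1 was under Thy1hi replicate 4. The difference of HFSCs was 2.39 from Thy1hi (adjusted p 1.99e-05) and 1.301 from Thy1- cells (adjusted p 0.0133; 0.0688 without Thy1- replicate 1). Thy1hi cells were -1.09 against Thy1- cells (paired SE 0.13, adjusted p 0.00139; unpaired 0.188; all-population block 0.042), and Fzd3 was -1.10 (paired adjusted p 0.00466; unpaired 0.348; all-population block 0.0609), both lower in 4 of 4 pairs. The 5 hair follicle stem cell markers (Cd34, Lhx2, Sox9, Tbx1 and Krt24) summed to 5612 to 9151 in HFSC, 1875 to 2064 in Thy1- and 672 to 975 in Thy1hi libraries, mostly through Sox9 in the Sca1-positive cells, and the part of follicle cells in the Thy1- level of these receptors was not tested.

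Fzd1 was also called higher in HFSCs. It had 454, 407, 500.3 and 262 normalized counts in HFSC, 65.1, 100.1, 90.2 and 138 in Thy1hi and 86.3, 185, 118 and 216 in Thy1- libraries, apart in both comparisons (2.04, adjusted p 0.000605, and 1.47, adjusted p 0.0178). The second call was lost without HFSC replicate 1 or 3 or without Thy1- replicate 1 or 3 (adjusted p 0.0506 to 0.0859). Fzd9 had 40.4, 42.4, 38.5 and 11.9 in HFSC and 2.43, 10.4, 3.16 and 5.74 in Thy1- libraries. The 4 Thy1hi libraries held 3 reads in all against 127 in HFSCs, a ratio of 40.1 per unit of library size. HFSCs were above Thy1- cells by 2.43. Both values are given with no test, since Fzd9 passed the minimum through HFSCs alone.

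Fzd10 was the frizzled gene called lower in HFSCs and higher in Thy1hi than in Thy1- cells. It had 351, 219, 276 and 485 normalized counts in Thy1hi, 163, 153, 177 and 233 in Thy1-, 111, 109, 149 and 70.8 in HFSC and 78.3, 50.9, 90.1, 34.3 and 60.0 in DETC libraries. Each Thy1hi library was above all HFSC and DETC libraries and above its Thy1- partner, although the lowest Thy1hi library (replicate 2) lay below the highest Thy1- library (replicate 4). Thy1hi cells exceeded Thy1- cells by 0.83 (paired SE 0.14, adjusted p 0.00607; unpaired 0.401; all-population block 0.131), HFSCs were at -1.58 (adjusted p 0.00117) and DETCs at -2.40 (adjusted p 9.9e-07) against Thy1hi cells. Fzd6, also known for hair patterning, overlapped between the keratinocyte populations (398 to 540.4 in Thy1hi, 418 to 517 in Thy1- and 360.1 to 459 in HFSC libraries) and was called lower in DETCs (114 to 213; -1.37 against Thy1hi cells, adjusted p 2.48e-06).

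Fzd4 and Fzd5 marked the DETC libraries. Fzd5 had 634, 725, 835, 1100.4 and 659 normalized counts in DETC, 159, 149, 164 and 218 in Thy1hi and 343, 342, 388 and 98.1 in HFSC libraries, and Fzd4, a receptor also bound by norrin in the retina, had 109, 112, 119, 294 and 165, 13.2, 15.8, 5.69 and 2.91 and 33.5, 28.2, 25.7 and 42.0. All DETC libraries lay above all others for both genes. Against Thy1hi cells DETCs were 2.18 higher for Fzd5 (SE 0.29, adjusted p 5.24e-06) and 4.06 for Fzd4 (SE 0.61, adjusted p 2.19e-05). With a pseudocount of 10 the Fzd4 difference was 3.08. Against HFSCs the differences were 1.58 (adjusted p 0.000212) and 2.18 (adjusted p 0.00736; 0.0677 with a pseudocount of 0.1). Fzd8 was called in no comparison.

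Among the co-receptors, which pair with a frizzled protein to pass the signal on, Lrp6 was higher in HFSCs (1177, 1651, 1253 and 1523) than in Thy1hi (701, 682, 710.5 and 835) or Thy1- libraries (863, 902, 789 and 922). The HFSC libraries were apart from both. The differences were 0.93 (SE 0.16, adjusted p 0.000367) and 0.68 (SE 0.16, adjusted p 0.0116, or 0.0716 with libraries scaled to the same total without Rn45s). Lrp5 was called in neither of these comparisons and was lower in DETCs (529, 528, 579, 291 and 546) than in Thy1hi cells (1033, 772, 797 and 1207), a difference of -0.96 (adjusted p 0.000817).

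The 3 R-spondin receptors differed in where they were expressed. Lgr5 (chromosome 10, 115450311 to 115587780, minus strand) had 665, 443, 545 and 572 normalized counts in HFSC libraries, 19.9, 32.9, 26.8 and 18.4 in Thy1hi, 23.1, 46.3, 51.3 and 36.9 in Thy1- and 47.9, 43.7, 45.1, 19.2 and 74.5 in DETC libraries. Every HFSC library was above any other library of the 5 populations. Its difference was 4.47 from Thy1hi (SE 0.36, adjusted p 1.88e-07), 3.83 from Thy1- cells (SE 0.36, adjusted p 1.61e-06), and DETCs were -3.67 from HFSCs (SE 0.34, adjusted p 3.79e-08). No difference was called between Thy1hi and Thy1- cells (-0.64, adjusted p 0.798; paired 0.203). DETCs against Thy1hi cells, at 0.80, had an adjusted p of 0.0713, and of 0.00855 without DETC replicate a, 0.0373 with edgeR and 0.0216 with DESeq2.

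Lgr4 was present in every library and highest in HFSCs (870.4, 1618, 965 and 812, against 282, 298, 379.6 and 318 in Thy1hi and 339, 480.2, 457 and 564 in Thy1- libraries). The HFSC libraries did not overlap either population (1.69, adjusted p 4.78e-05, and 1.18, adjusted p 0.00411). Thy1hi cells were below Thy1- cells in 4 of 4 pairs (-0.51, paired adjusted p 0.0409; unpaired 0.623; all-population block 0.209). Lgr6 (chromosome 1, 134983301 to 135105276, minus strand) followed another order, with 815, 672, 669.8 and 1725 normalized counts in Thy1hi, 438, 443, 504 and 907 in Thy1-, 715, 609, 699 and 559.8 in HFSC, 312, 197, 438, 147 and 277 in DETC and 374, 341 and 339.8 in YFP+ libraries. Replicate 4 was far above the others in both Thy1hi and Thy1- cells. Thy1hi exceeded Thy1- cells by 0.71 (paired SE 0.11, adjusted p 0.00536, higher in 4 of 4 pairs; unpaired 0.603; all-population block 0.209). No difference was called between HFSCs and Thy1hi (-0.47, adjusted p 0.338) or Thy1- cells (0.24, adjusted p 0.671), and DETCs were lower than Thy1hi cells (-1.80, adjusted p 6.81e-05) and HFSCs (-1.32, adjusted p 0.00139). Rspo3, the R-spondin ligand that was testable, had 59.6, 42.1, 43.1 and 92.2 in Thy1hi and 13.7, 26.4, 23.7, 0 and 18.0 in DETC libraries, a called difference of -2.33 (SE 0.71, adjusted p 0.013; -1.46 without DETC replicate a), with 10.4, 17.4, 32.1 and 23.1 in HFSC libraries.

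The secreted antagonists Dkk3 and Sfrp1 were each called higher in HFSCs than in Thy1hi, Thy1- cells and DETCs, and Wif1 had its highest values there. Dkk3, the divergent member of the Dickkopf family, had 674, 1147, 1171 and 1249 normalized counts in HFSC, 75.1, 43.5, 97.5 and 126 in Thy1hi, 29.2, 62.5, 91.5 and 80.3 in Thy1- and 55.8, 92.5, 80.6, 20.6 and 48.0 in DETC libraries. All HFSC libraries were above all others. The differences were 3.68 from Thy1hi (SE 0.41, adjusted p 4.98e-06) and 4.07 from Thy1- cells (SE 0.41, adjusted p 3.74e-06), and -4.26 for DETCs against HFSCs (adjusted p 3.44e-08). Sfrp1, which binds WNT proteins and frizzled receptors, had 882, 4050.0, 1253 and 1176 in HFSC, 235, 178, 236 and 233 in Thy1hi, 109, 141, 209.8 and 124 in Thy1- and 74.4, 257, 98.0, 61.7 and 122 in DETC libraries. HFSC replicate 2 was far above the other 3, which were still above all other libraries. HFSCs were higher than Thy1hi by 2.79 (SE 0.40, adjusted p 7.97e-05) and than Thy1- cells by 3.41 (adjusted p 2.61e-05), and DETCs were at -3.81 against HFSCs (adjusted p 1.2e-07). Wif1, a secreted protein that binds WNT ligands, was less abundant, with 42.7, 43.4, 70.6 and 51.9 in HFSC, 9.94, 3.95, 5.69 and 9.70 in Thy1hi, 7.30, 9.26, 0.790 and 3.28 in Thy1- and 20.6, 7.12, 29.2, 8.23 and 9.61 in DETC libraries. HFSCs were higher by 2.72 than Thy1hi and by 3.36 than Thy1- cells, and DETCs were at -1.91 against HFSCs, values given with no test since Wif1 passed the minimum through HFSCs alone. Dkk2 (38.4 to 94.6 in DETC, 16.5 to 46.1 in Thy1hi and 22.8 to 40.4 in HFSC libraries) and Dkkl1 (32.9 to 56.8, 5.52 to 47.5 and 34.3 to 76.2) were called higher in DETCs than in Thy1hi cells (1.06, adjusted p 0.0397, and 1.29, adjusted p 0.0422), with overlapping libraries. The call of Dkk2 was lost without DETC replicate 2 or 3 or without Thy1hi replicate 1, 3 or 4 (adjusted p 0.0665 to 0.132), and that of Dkkl1 without any of DETC replicate 1, 2, 3 or b, Thy1hi replicate 1 or 2, Thy1- replicate 3 (adjusted p 0.0504 to 0.214). Among other settings, the call of Dkk2 was lost without a filter (0.0768), with quantile normalization (0.0631), with equal totals without Rn45s (0.0626) and without replicate 4 of both Thy1hi and Thy1- cells (0.136). That of Dkkl1 was lost with a pseudocount of 10 (0.0571), without a filter (0.0731), with equal totals without Rn45s (0.0542), with only the 2 populations in the fit (0.0626), with a block over all populations (0.0991), with edgeR (0.137) and with DESeq2 (0.0978). Sfrp1 was called lower in DETCs than in Thy1hi cells (-1.02, adjusted p 0.042), which was lost without DETC replicate 1, 3, a or b or without Thy1hi replicate 1, 3 or 4 (adjusted p 0.0511 to 0.114), and also without a filter (0.0735), with a block over all populations (0.102), in the deposited row order (0.0508), without replicate 4 of both Thy1hi and Thy1- cells (0.0897), with edgeR (0.122) and with DESeq2 (0.0972).

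**Figure D4:**
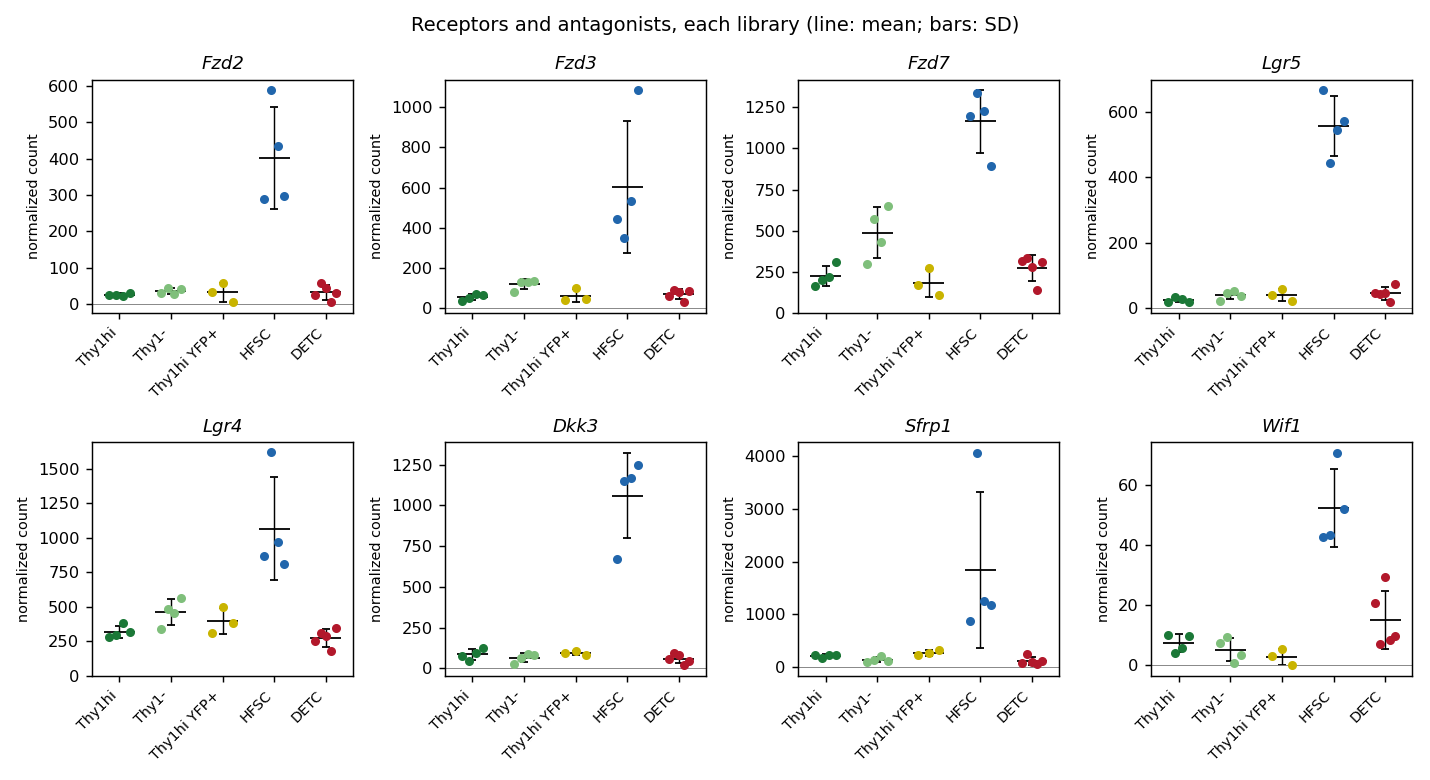
Normalized counts (vertical axis) of Fzd2, Fzd3, Fzd7, Lgr5, Lgr4 and the antagonists Dkk3, Sfrp1 and Wif1 in each library, with the mean (line) and SD (bars). HFSC libraries lie above all others in each of the 8 panels.

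Axin2, a direct target of β-catenin that feeds back on the pathway (chromosome 11, 108920349 to 108950783, plus strand), was highest in DETCs. It had 1748, 1820.3, 1572, 3095 and 1898 normalized counts in DETC libraries. In the others it stood at 343, 258, 337 and 618 in Thy1hi, 292, 336, 331 and 584 in Thy1-, 365, 257, 403 and 536 in HFSC and 307, 293 and 367 in YFP+ libraries. Every DETC library held more than any keratinocyte library, and replicate a, with the lowest basal keratinocyte and the highest T cell marker sum, had the most. DETCs were 2.41 above Thy1hi cells (SE 0.26, adjusted p 3.36e-07, exact p 0.0159) and 2.38 above HFSCs (SE 0.26, adjusted p 3.93e-07). Its mean ± SD was 389 ± 157 in Thy1hi, 386 ± 134 in Thy1- (n = 4 each) and 390.3 ± 115 in HFSCs (n = 4). None of these 3 differences was called: -0.01 for Thy1hi against Thy1- cells (SE 0.28, adjusted p 1), 0.03 for HFSCs against Thy1hi (SE 0.28, adjusted p 0.95) and 0.02 against Thy1- cells (SE 0.28, adjusted p 0.97). Each is smaller than its SE, and its sign turned under some other settings. The 250 bases before the RefSeq start of Axin2 are shown because this gene is the usual reporter of the pathway. The letters CTTTGA, the core that TCF and LEF factors recognize, were searched on both strands (CTTTGA or TCAAAG), would be in capitals, and are not in this window.
Axin2, chr11:108920099-108920348, plus strand: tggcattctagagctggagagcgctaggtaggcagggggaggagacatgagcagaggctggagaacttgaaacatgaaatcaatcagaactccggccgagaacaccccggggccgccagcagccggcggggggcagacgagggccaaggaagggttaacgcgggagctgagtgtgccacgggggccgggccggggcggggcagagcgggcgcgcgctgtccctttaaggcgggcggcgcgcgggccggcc
The core was found in 16% of the 32851 RefSeq windows of 300 bases and in 3 of 27 windows of tested WNT genes (those of Fzd1, Wnt5b and Wnt11); 23 of the 38 had a window, Lgr5 not among them.

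The other feedback genes split by population. Rnf43, a ubiquitin ligase that clears frizzled receptors, had 842, 1189.8, 854, 1968 and 892 normalized counts in DETC, 654, 601, 802 and 594 in Thy1hi and 354, 412, 399 and 371 in HFSC libraries. The 3 groups did not overlap. DETCs were higher than Thy1hi cells by 0.72 (adjusted p 0.0132) and than HFSCs by 1.499 (adjusted p 1.62e-05), and HFSCs were at -0.78 against Thy1hi cells (adjusted p 0.0298), the last call being lost without HFSC replicate 1, 3 or 4 or without Thy1hi replicate 1 or 3 (adjusted p 0.0511 to 0.0943) and without a filter (0.066). With quantile normalization Rnf43 was not called between DETCs and Thy1hi cells (adjusted p 0.0886). Znrf3, its homologue, had 433, 331, 371 and 489.9 in Thy1hi, 242, 257, 269 and 309.9 in Thy1- and 247, 213, 257 and 167 in HFSC libraries. Thy1hi libraries were above all of these and exceeded Thy1- cells by 0.58 (paired SE 0.12, adjusted p 0.0174; unpaired 0.191; all-population block 0.0973; DESeq2 0.0331), with HFSCs at -0.88 against Thy1hi cells (adjusted p 0.000973). Axin1, which sits in the destruction complex with Axin2, differed less, with 614, 575, 575, 748 and 582 in DETC and 532, 495, 506 and 291 in HFSC libraries (0.47, adjusted p 0.0329), a call lost without HFSC replicate 4 or without DETC replicate a (adjusted p 0.0775 to 0.14) and without a filter (0.0995), with quantile normalization (0.332), with only the 2 populations in the fit (0.101), with a block over all populations (0.163), with a block of DETC and HFSC replicates 1 to 3 (0.15) and with edgeR (0.0615). With the replicate number as a block and only DETC and HFSC replicates 1 to 3, a fit chosen after the data were seen, 27 WNT genes were called (8 higher and 19 lower), against 42.2% of all genes (22.6% and 19.6%). Beside the loss of Axin1, that fit called 3 genes which the unpaired fit did not: Wnt10a (-0.75, adjusted p 0.01), Dkk2 (1.09, 0.0379) and Wnt11 (-0.65, 0.0487), the last with its sign turned from 0.22 in the unpaired fit (adjusted p 0.762). Since each number occurs once in both groups, the block itself does not alter these differences. They changed because HFSC replicate 4 and DETC replicates a and b were left out, Wnt11 being at 11.2 in HFSC replicate 4.

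**Figure D5:**
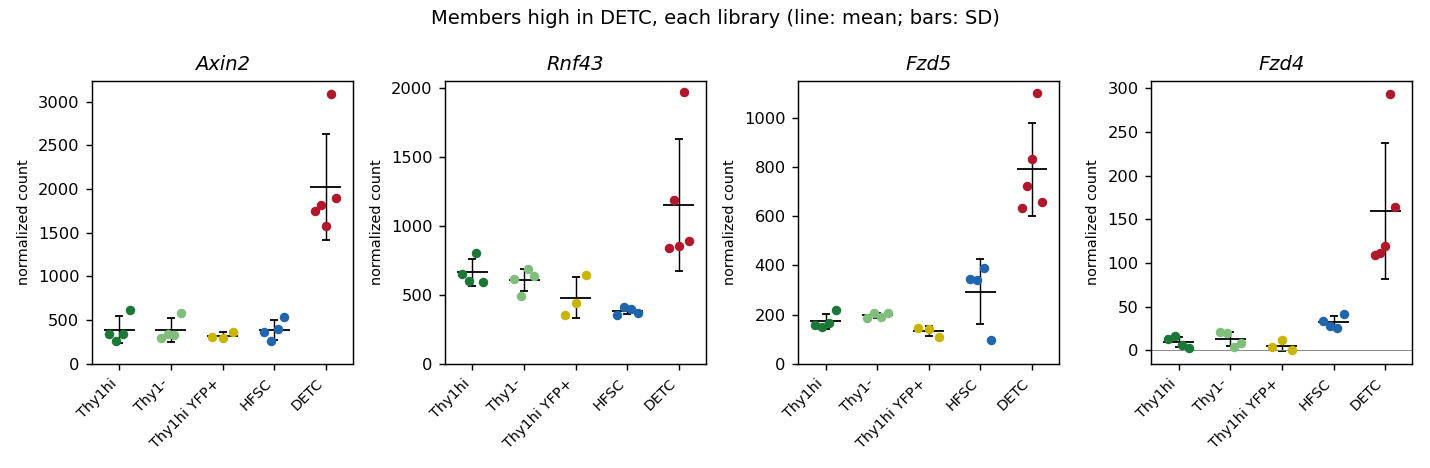
Normalized counts (vertical axis) of Axin2, Rnf43, Fzd5 and Fzd4 in each library of the 5 populations, with the mean (line) and SD (bars). The 5 DETC libraries stand above all others in each panel.

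In YFP+ cells, lineage-labelled cells sorted as Thy1hi, 6 of the 38 WNT genes did not overlap Thy1hi cells: Lgr6, Znrf3, Wnt6 and Fzd5 lay below and Wnt9a and Fzd9 above (10.5% of all genes did not overlap, 4.92% higher and 5.55% lower). Of the 38, limma called 0 (6 had an unadjusted p under 0.05), edgeR called 0 and DESeq2 called 2, Lgr6 and Znrf3, against 0.0116% of all genes with limma and 0.657% with DESeq2. The ligands Wnt3 (515, 309 and 698), Wnt3a (151, 62.7 and 126), Wnt4 (1045, 626 and 814) and Wnt10a (483, 284 and 435) overlapped the Thy1hi libraries given above. Lgr6 did not overlap and lay lower in YFP+ cells (-1.34 on the log2 scale, SE 0.34, adjusted p 0.193, exact p 0.0571, the smallest this design allows; DESeq2 adjusted p 0.0157). Znrf3 had 247, 235 and 239.8 in YFP+ libraries, also below every Thy1hi library (-0.74, adjusted p 0.157; DESeq2 0.00886). Wnt6 (22.4 to 29.7 in YFP+ and 30.1 to 65.0 in Thy1hi libraries), Fzd5 (110.0 to 145 and 149 to 218) and Wnt9a (8.97 to 13.2 and 4.42 to 7.90) did not overlap either, nor did Fzd9 (1.99 to 9.29 and 0 to 1.63), which was under the level of 3 reads in every Thy1hi library; none of these 4 was called by limma, edgeR or DESeq2. Lgr5 (0.65, adjusted p 0.652) and Axin2 (-0.20, adjusted p 0.887) were not called. By the study's methods the YFP+ cells also differed from Thy1hi cells in genotype and induction, which cannot be told apart from the label, and their suprabasal sum averaged 40920.1 against 17132 in Thy1hi cells, while their T cell sum was 108 to 193 against 208 to 381; the part of these sums was not tested. With 3 libraries in this group, a difference that is not called is not shown to be absent.

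Beyond ligands and receptors, 60 further genes of WNT secretion, transduction and nuclear response were listed and 54 were tested. In HFSCs against Thy1hi cells 11 were called (10 higher and 1 lower in HFSCs), or 20.4% beside 13.4% of all genes, and against Thy1- cells 6 (all higher), or 11.1% beside 6.08%. DETCs against Thy1hi cells gave 25 (8 higher, 17 lower), 46.3% beside 36.6%, and DETCs against HFSCs 30 (5 higher, 25 lower), 55.6% beside 39.7%. Thy1hi against Thy1- cells gave 1 (1.85% beside 0.337%), or 13 (7 higher, 6 lower) in the paired fit, where 6.61% of all genes were called. Ror2, Dact2 and Dact3 passed the minimum through 1 population alone, and without them the unpaired counts were 10, 5, 25, 29 and 1 of 51. Median differences over the 54 were 0.32, 0.14, -0.32, -0.87 and -0.03, beside the medians over all genes given above.

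Among the nuclear partners of β-catenin, Tcf7l1 and Tcf7l2 were called higher in HFSCs than in Thy1hi cells, and Tcf7 in DETCs. Tcf7l1, known as the repressor TCF3 of follicle stem cells, averaged 167 ± 80.6 (SD, n = 4) normalized counts in HFSCs and 18.5 ± 5.54 in Thy1hi cells (3.05, adjusted p 8.96e-05), and Tcf7l2 565 ± 71.5 and 249.9 ± 19.3 (1.17, adjusted p 6.08e-05). Tcf7, the T cell factor TCF1, averaged 1601 ± 567 (SD, n = 5) in DETCs and 78.4 ± 41.4 in Thy1hi cells (4.40, adjusted p 2.72e-09). Lef1 averaged at most 32.2, in HFSCs, and was called in no comparison, nor was Ctnnb1, which encodes β-catenin (1843 in Thy1hi to 2177 in HFSCs), in the unpaired fits.

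Other genes of this list with large differences included Ror2 and Gpc6 in HFSCs. Ror2, a receptor for Wnt5a, stood above Thy1hi cells by 3.39 (2.69 without Thy1hi replicate 4) and above Thy1- cells by 2.77, values given with no test since it passed the minimum through HFSCs alone. Gpc6, a cell surface glypican, was higher by 3.38 (adjusted p 1.59e-05) and 2.35 (0.00185). Nkd1, an inducible inhibitor inside the cell, was higher by 3.23 (adjusted p 0.000101) and 2.57 (0.00262); its value in Thy1- replicate 4 was among those put back. Nkd2 was higher than in Thy1hi cells by 1.73 (adjusted p 0.0169), a call lost without Thy1hi replicate 1 or 3 (adjusted p 0.0646 to 0.071) and with only the 2 populations in the fit (0.0623) and in the deposited row order (0.184); its value in Thy1- replicate 4 was put back too. Dact1 was higher than in Thy1- cells by 2.07 (adjusted p 0.0111).

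In DETCs, Cxxc5, an inhibitor of the pathway inside the cell, was higher than in Thy1hi cells by 4.64 (adjusted p 6.7e-08), or 3.65 with a pseudocount of 10. Gpc3 (-2.71, adjusted p 0.000209), Prickle1 (-2.47, 0.000337, or -1.87 without DETC replicate a) and Tnfrsf19 (-2.16, 0.000185) were lower than in Thy1hi cells. Sostdc1, a secreted antagonist of WNT and BMP signals, was the gene of this list called between Thy1hi and Thy1- cells in the unpaired fit. It had 171, 125, 152 and 211 normalized counts in Thy1hi and 423, 596, 847 and 1184 in Thy1- libraries. All Thy1hi libraries were lower than all Thy1- libraries (-2.13 on the log2 scale, adjusted p 0.0259; paired 0.000255). The unpaired call was lost without Thy1hi replicate 1, 2 or 3 or without Thy1- replicate 2, 3 or 4 (adjusted p 0.0597 to 0.117) and without replicate 4 of both Thy1hi and Thy1- cells (0.139).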

How the data were processed

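RNA of 20 libraries from sorted epidermal cells was sequenced in bulk. The deposited values are a signal on the scale of counts: STAR alignment against mm10 and featureCounts came first, after which the authors divided the counts of each library by its DESeq2 size factor (versions of STAR and featureCounts and the strand setting are not given in the sources used here). They are not raw counts, so log2(value + 1) was tested with limma (3.58.1, R 4.3.3) over the 17204 genes for which 3 or more libraries reached 10, all 5 populations in one fit, with Benjamini-Hochberg adjustment. Whole reads were recovered from the steps of the values (7781256 to 12982393 reads on genes per library) and tested with edgeR (4.0.16) and DESeq2 (1.42.0) as alternatives. The unpaired limma fit was run on simulated counts for HFSCs against Thy1hi cells. The paired and block fits, edgeR and DESeq2 were not run on simulated counts. The read totals limit what low genes can show.

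In the column of Thy1- replicate 4, genes stood in an order that ignores hyphens, and 3212 values were moved back to their gene. Groups follow the sample labels; 2 DETC columns carry numbers that match no label and are called a and b. Libraries of a group may come from pooled mice, so p-values measure the spread between libraries. Library kits changed between batches that the labels do not give per sample, so batch could not be fitted. Same-numbered Thy1hi and Thy1- libraries were correlated in their deviations from the group means (r 0.293 to 0.716 over 4 pairs, -0.651 to 0.514 between different numbers), hence the paired fit. For DETC and HFSC replicates 1 to 3, r was 0.170 to 0.333, within the range between different numbers (-0.250 to 0.371). Same-numbered HFSC and Thy1hi libraries (-0.232 to 0.162) and HFSC and Thy1- libraries (-0.225 to 0.165) shared no direction. The other replicate blocks were run as alternatives only.

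The members and gene lists were chosen with earlier results of these data known. Axin2, Lgr5, Lgr6 and up to 10 called members per comparison with the largest differences are given in full, with up to 5 called genes of the pathway list; the other called members, the members called by the paired fit and Tcf7l2 were added after their values were seen. Values per kilobase divide by the union of GENCODE exons (mm10). Alternatives were other pseudocounts (10 and 0.1), no filter or a mean of at least 50, quantile normalization, equal totals without Rn45s, only the 2 populations compared, replicate blocks, the deposited row order, each library left out in turn, edgeR and DESeq2; leaving out replicate 4 of both Thy1hi and Thy1- cells and the DETC and HFSC block were chosen after seeing the data. Exact permutation tests were two-sided (scipy 1.17.1).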

Additional observations from a re-analysis of the deposited data

Results flagged for a closer look

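Among 140 groups of 4 or 5 libraries over 35 WNT genes, 16 held a library far from the others of its group, where chance gives about 1 in 20, or 7. Each was found by the gap to its nearest neighbour relative to the whole range of the group, and no cause was tested.

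In DETC replicate a, Axin2 was at 3095 normalized counts (the other 4 at 1572 to 1898) and Axin1 at 748 (575 to 614). In the same library Fzd7 was at 139.95 (278 to 333), Lrp5 at 291 (528 to 579) and Wnt16 at 9.60 (30.8 to 39.1). It had the lowest basal keratinocyte marker sum of the DETC libraries, 9972.

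In HFSC replicate 4, Axin1 was at 291 (the other 3 at 495 to 532), Fzd5 at 98.1 (342 to 388) and Fzd9 at 11.9 (38.5 to 42.4). Its basal keratinocyte marker sum, 48623, was the lowest of the HFSC libraries. In HFSC replicate 2, Sfrp1 was at 4050.01 (882 to 1253).

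Replicate 4 was far above the others for Lgr6 in Thy1hi (1725, against 670 to 815) and in Thy1- cells (907, against 438 to 504). In Thy1- replicate 4, Axin2 was at 584 (292 to 336) and Wnt4 at 495 (290.3 to 304). In Thy1- replicate 1, Fzd3 was at 82.7 (130.2 to 134). In Thy1hi cells, Sfrp1 was at 178 in replicate 2 (233 to 236) and Wnt16 at 262 in replicate 3 (166 to 179).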

How the results depend on the processing

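The number of WNT genes called stayed within 1.5 times the reported number in HFSCs against Thy1hi or Thy1- cells and in DETCs against Thy1hi cells or HFSCs under every alternative run. Leaving out each library in turn gave 17 to 24, 9 to 14, 19 to 25 and 21 to 25 called genes in these 4 comparisons, against 9.00% to 17.0%, 2.97% to 11.4%, 31.8% to 39.3% and 33.8% to 40.7% of all genes, and 0 in Thy1hi against Thy1- and in YFP+ against Thy1hi cells (0.0756% to 0.773% and 0% to 0.134% of all genes). In HFSCs against Thy1- cells the split of 11 higher and 1 lower became 11 and 4 with quantile normalization, 10 and 3 with equal totals without Rn45s and 11 and 3 with the block over all populations, where 4.17%, 2.80% and 7.63% of all genes were called higher and 4.27%, 4.87% and 8.07% lower (3.52% and 2.56% in the reported fit). Thy1hi against Thy1- cells went from 0 to 13 called genes in a fit that both added a replicate block and kept only these 8 libraries. The count was 3 (Fzd7, Wnt3 and Wnt3a) with the replicate block over all populations. DESeq2 called 2 genes there (Fzd7 and Znrf3) and 2 in YFP+ against Thy1hi cells (Lgr6 and Znrf3), where limma called 0; the cause was not tested.

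Among the differences given a test and recomputed under every alternative, the changes of sign were in Axin2. With only DETC and HFSC replicates 1 to 3 kept, Wnt11 (0.22 to -0.65), Rspo3 (-0.83 to 0.18) and Wnt5a (-0.26 to 0.14) also turned. Thy1hi against Thy1- cells was 0.01 with edgeR and with DESeq2 (0.0137 and 0.0104) and ran from -0.26 to 0.21 as single libraries were left out. HFSCs against Thy1hi cells was -0.0226 with equal totals without Rn45s and ran from -0.14 to 0.28 over single libraries, and HFSCs against Thy1- cells was -0.107 and ran from -0.14 to 0.24. YFP+ against Thy1hi cells was 0.0108 with the block over all populations, 0.0474 without replicate 4 of both Thy1hi and Thy1- cells, and ran from -0.37 to 0.0474 over single libraries.

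The tally of single differences covers all that were named, including those of Fzd9, Wif1, Wnt7a and Ror2 given with no test. Under other settings 1467 of the values kept direction and side of the threshold, 52 rose above it and 22 fell below it. With a library left out 2448 kept both, 78 rose above it and 1 fell below it. Wif1, Fzd9 and Wnt7a were at 0 in at least 1 library, and depth limits their values. The named differences with an adjusted p under 0.05 here include those of Fzd9, Wif1, Wnt7a and Ror2, given with no test. Of these named differences, a pseudocount of 10 moved 22 by over 1.5 times and a pseudocount of 0.1 moved 5. The block over all populations, which also leaves out DETC replicates a and b, moved 7. In DETCs against Thy1hi cells these were Wnt3a (-2.26), Wnt6 (-1.54), Rspo3 (-1.20), Gpc3 (-1.90) and Prickle1 (-1.76). In DETCs against HFSCs they were Dkk3 (-3.62) and Fzd2 (-3.23). Without the block and with DETC replicate a alone left out, Wnt3a was at -2.39, Wnt6 at -1.71, Rspo3 at -1.46 and Prickle1 at -1.87. The fit with only DETC and HFSC replicates 1 to 3 moved Wnt9a to 1.99 and Tcf7 to 3.86. Quantile normalization moved the median of all genes in DETCs by -0.20 against Thy1hi cells and -0.18 against HFSCs, equal totals without Rn45s by -0.13 in HFSCs against Thy1- cells, and no filter by -0.13 and -0.19 in HFSCs against Thy1hi and Thy1- cells.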
